A study of Saccharomyces cerevisiae with 27 samples.

Results

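Ribonucleotide reductase of budding yeast is encoded by 4 genes, RNR1, RNR2, RNR3 and RNR4, which were followed here among the 5995 genes of the files. They were matched by gene ID, and all 4 passed the filter on low counts. The set was chosen with results known, because RNR3 was higher in LCY002 than in LCY001 in glucose, so that comparison is given below as a description with no test.

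The study sequenced messenger RNA of Saccharomyces cerevisiae in 27 libraries, 3 from individual colonies for each of 9 groups. BY4741 is a laboratory strain with the alleles his3Δ1, leu2Δ0, met15Δ0 and ura3Δ0. LCY001 and LCY002 share these alleles and also hold a centromeric plasmid (CEN-HIS3), which in LCY002 carries in addition an array of 40 genes: CDC19, ENO1, ENO2, ERG1, ERG11, ERG2, ERG20, ERG24, ERG25, ERG26, ERG27, ERG3, ERG4, ERG5, ERG6, ERG7, ERG9, FBA1, GAL1, GAL10, GAL2, GAL3, GAL4, GAL7, GAL80, GLK1, GPM1, HXK1, HXK2, PFK1, PFK2, PGI1, PGK1, PGM1, PGM2, PYK2, TDH1, TDH2, TDH3 and TPI1. They belong to galactose use, glycolysis and sterol synthesis, and no ribonucleotide reductase gene is among them. Each strain was grown to log phase on glucose, on galactose or on ethanol with glycerol, after an overnight culture in medium that lacked histidine. That overnight medium is named for BY4741 too, although his3Δ1 leaves no working HIS3, and the sources used here do not say how BY4741 grew in it. Per the labels the array is what LCY002 adds to LCY001. Each plasmid strain has a single name, and differences between its clone and its plasmid cannot be told apart.

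The enzyme turns ribonucleotides into the deoxyribonucleotides from which DNA is built, and it is the step that limits their supply. A large subunit, encoded by RNR1 or its paralog RNR3, holds the catalytic and allosteric sites, and a small subunit formed by the products of RNR2 and RNR4 supplies a radical through an iron cofactor. In yeast RNR1 is known as a gene of the G1/S transition, driven through MCB elements. RNR2, RNR3 and RNR4 are known targets of the repressor Rfx1 (Crt1), which binds X-boxes and is removed when the checkpoint kinases Mec1, Rad53 and Dun1 are active, and RNR3 is low in undisturbed cells.

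All coordinates are of build R64. RNR1 (gene ID 856801, YER070W) has its coding region at chrV:298950-301616, RNR3 (854744, YIL066C) at chrIX:238099-240708, RNR2 (853427, YJL026W) at chrX:392404-393603 and RNR4 (853091, YGR180C) at chrVII:855264-856301. None of the 4 overlaps another annotated gene. Reads shared between paralogs are a possible source of error for RNR3, since RNR1 and RNR3 are identical at 76.2% of aligned coding bases with 38 bases as their longest common run, against 67% and 14 bases for RNR2 and RNR4. The expected counts of all 4 genes were whole numbers in all 27 libraries.

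The letters upstream of the genes are shown because 3 members moved together below and share a stretch that RNR1 lacks. Windows of 800 bases before each start codon were searched on both strands, with motifs chosen after the sequences were seen. Capitals mark the X-box core GTTGCC (or GGCAAC on the other strand) together with the longest word that the RNR2, RNR3 and RNR4 windows share, an 11-letter word that contains it, and the MCB letters ACGCGT. Each stretch is written 5′ to 3′ on the strand of its gene, and HUG1, a small protein gene known to be induced with RNR3, is added for comparison.
RNR1, 500 to 301 bases before the start codon, chrV:298450-298649, plus strand: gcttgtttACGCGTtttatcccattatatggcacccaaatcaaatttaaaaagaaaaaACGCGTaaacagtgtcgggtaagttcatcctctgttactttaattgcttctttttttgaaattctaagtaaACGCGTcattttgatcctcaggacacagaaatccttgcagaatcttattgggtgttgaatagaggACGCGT
RNR2, 480 to 341 bases before the start codon, chrX:391924-392063, plus strand: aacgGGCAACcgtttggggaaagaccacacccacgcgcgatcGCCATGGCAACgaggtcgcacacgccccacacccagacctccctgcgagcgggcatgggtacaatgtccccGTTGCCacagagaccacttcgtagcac
RNR3, 300 to 161 bases before the start codon, chrIX:240869-241008, minus strand: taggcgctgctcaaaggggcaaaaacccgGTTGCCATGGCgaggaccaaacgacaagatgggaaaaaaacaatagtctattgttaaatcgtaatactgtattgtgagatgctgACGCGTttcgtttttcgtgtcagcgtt
RNR4, 800 to 721 bases before the start codon, chrVII:857022-857101, minus strand: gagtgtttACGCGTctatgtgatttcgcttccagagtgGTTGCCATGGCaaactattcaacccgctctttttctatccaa
HUG1, 240 to 141 bases before the start codon, chrXIII:158520-158619, plus strand: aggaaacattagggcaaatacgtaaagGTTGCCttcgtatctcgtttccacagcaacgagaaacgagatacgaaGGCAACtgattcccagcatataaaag

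The shared word GCCATGGCAAC starts 438 bases before RNR2, inside the annotated gene YJL027C. It starts, on the other strand, 271 bases before RNR3 and 762 bases before RNR4, between annotated genes. It occurs before 7 of 6002 genes (0.117%), while GTTGCC alone occurs before 22.2% and ACGCGT before 7.61%. RNR1 holds ACGCGT at 492, 442, 371 and 306 bases before its start codon, and a single GTTGCC at 169. ACGCGT also occurs at 546 and 187 bases before RNR3 and at 792 before RNR4. These matches describe letters, and binding was not measured. The other genes with the shared word form 2 divergent pairs, NDE2 with YDL085C-A and PAC1 with YOR268C.

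Library totals ran from 14484847 to 16219263 expected counts. A count of 3 corresponds to 0.207 CPM (unscaled counts per 1000000) in the library with the lowest total, which covers counting error only. LEU2, URA3 and MET17 (the MET15 locus) had 0 counts in every library. HIS3 stood at 26 to 48.7 CPM in BY4741, at 999 to 1522 CPM in LCY001 and at 432 to 666 CPM in LCY002, so the markers match the genotype labels. Below, levels are TMM-scaled CPM as mean ± SD (n = 3 libraries), and log2 fold changes carry the SE of the fit. A gene is called at a Benjamini-Hochberg adjusted p below 0.05 over 5692 genes in the quasi-likelihood F test of edgeR. The libraries are from separate colonies, but the sources used here do not say whether those came from separate transformations. In such bulk samples, fewer cells that express a gene and less RNA per cell cannot be told apart.

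RNR4 and RNR2 were the more abundant members per length and RNR3 the least. In BY4741 in glucose the level per coding length was 661 ± 41.5 FPKM for RNR4, 352 ± 3.93 for RNR2, 104 ± 4.03 for RNR1 and 3.62 ± 0.121 for RNR3. Over the 9 groups the highest group mean CPM was 2.15 times the lowest for RNR1, 2.07 times for RNR2 and 1.94 times for RNR4. For RNR3 it was 4.31 times, with LCY002 in glucose, the group that chose the gene, as the highest, so the ranges are not ranked. RNR3 counts ran from 115 to 520 per library. Between replicates the median coefficient of variation was 7.31% for RNR3 and 2.78% to 5.2% for the other members.

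RNR3 encodes the damage-inducible large subunit, and it was higher in LCY002 than in both other strains on every carbon source. In galactose its 3 libraries read 13.5, 10.9 and 12.3 CPM in BY4741, 15, 12.6 and 10.7 in LCY001, and 20.2, 22.9 and 20.2 in LCY002. In ethanol/glycerol they read 8.34, 8.75 and 7.87 CPM in BY4741, 9.98, 9.67 and 7.32 in LCY001, and 22.3, 22.8 and 22 in LCY002. The LCY002 libraries lay above all libraries of the other strains in both media, and those of BY4741 and LCY001 overlapped.

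RNR3 rose in LCY002 against LCY001 by 0.72 ± 0.10 on the log2 scale in galactose (1.65-fold, edgeR adjusted p = 3.28e-06) and by 1.31 ± 0.11 in ethanol/glycerol (2.49-fold, edgeR adjusted p = 2.02e-10). Against BY4741 it rose by 0.79 ± 0.10 (edgeR adjusted p = 8.84e-07) and 1.43 ± 0.11 (edgeR adjusted p = 2.59e-11), with the same LCY002 libraries in each pair of comparisons. The rise in ethanol/glycerol exceeded that in galactose by 0.59 ± 0.15 against LCY001 and by 0.64 ± 0.15 against BY4741 (edgeR adjusted p = 0.00245 and 0.00128 for the interaction). Between LCY001 and BY4741 the differences were 0.07 ± 0.11 in galactose (edgeR adjusted p = 0.67) and 0.11 ± 0.12 in ethanol/glycerol (edgeR adjusted p = 0.614), and neither was called.

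The highest RNR3 level was that of LCY002 in glucose, and it is there that the gene was chosen. Its libraries read 9.59, 9.36 and 9.8 CPM in BY4741, 12.4, 12.7 and 10.7 in LCY001, and 35.7, 34.2 and 37.7 in LCY002. The 3 strains did not overlap. LCY002 was 1.59 ± 0.10 above LCY001 (3.01-fold) and 1.90 ± 0.10 above BY4741 (3.74-fold), with no test for either.

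Within strains, RNR3 was lower in ethanol/glycerol than in galactose in both strains without the array. In BY4741 it rose by 0.35 ± 0.12 in galactose against glucose (edgeR adjusted p = 0.0101), a call that ended without BY4741 galactose replicate 1 (0.28, adjusted p = 0.0644). It fell by 0.56 ± 0.12 in ethanol/glycerol against galactose in BY4741 (edgeR adjusted p = 0.00014) and by 0.51 ± 0.11 in LCY001 (edgeR adjusted p = 0.000317). In LCY002 that difference was 0.08 ± 0.10 (edgeR adjusted p = 0.45), with overlapping libraries. In order of level, LCY002 in glucose came first, LCY002 in ethanol/glycerol and in galactose next with overlapping ranges, and the 6 groups without the array last, between 8.32 ± 0.443 and 12.8 ± 2.15 CPM.

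**Figure D1:**
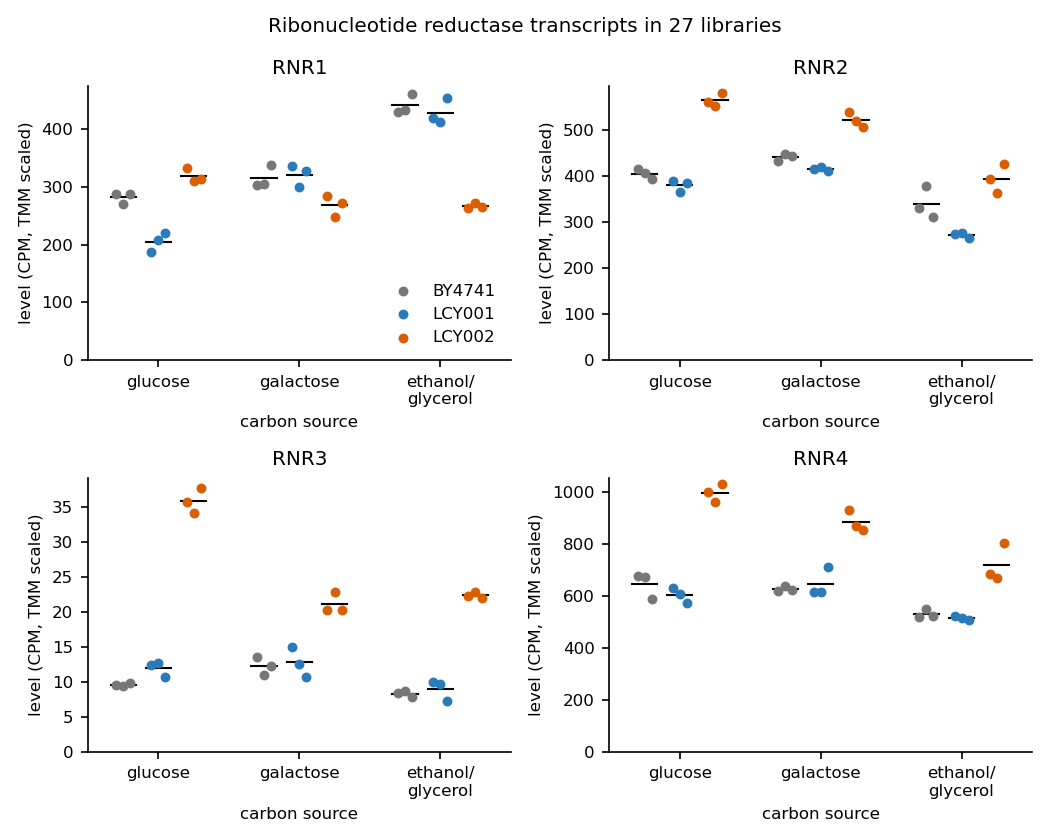
Level of each ribonucleotide reductase gene (y axis, CPM with TMM scaling, from 0) in every library, by carbon source (x axis) and strain (colour); a point is 1 library and a bar the mean of 3. The LCY002 libraries lie above the others for RNR3 and RNR4 in each medium, while RNR1 in ethanol/glycerol is near 267 CPM in LCY002 against 441 and 428 in the other strains.

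RNR1 encodes the main large subunit, and it went the other way from RNR3 in 2 of the 3 media. In ethanol/glycerol it read 430, 433 and 461 CPM in BY4741, 419, 412 and 454 in LCY001, and 264, 273 and 265 in LCY002. In galactose it read 303, 305 and 338 CPM in BY4741, 336, 300 and 328 in LCY001, and 285, 248 and 272 in LCY002. The LCY002 libraries were the lowest in both media, with the narrower gap in galactose.

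RNR1 fell in LCY002 against LCY001 by 0.68 ± 0.06 in ethanol/glycerol (edgeR adjusted p = 5.64e-10) and by 0.26 ± 0.06 in galactose (edgeR adjusted p = 0.0011). Against BY4741 it fell by 0.72 ± 0.06 (edgeR adjusted p = 1.08e-10) and 0.24 ± 0.06 (edgeR adjusted p = 0.00266). LCY001 and BY4741 differed by -0.04 ± 0.06 and 0.03 ± 0.06 in these media, which was not called. The fall in ethanol/glycerol was the larger one, by 0.42 ± 0.08 against LCY001 (edgeR adjusted p = 0.000244).

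In glucose RNR1 was instead lowest in LCY001. The libraries read 287, 270 and 288 CPM in BY4741, 187, 208 and 220 in LCY001, and 333, 310 and 314 in LCY002, with no overlap. LCY001 was 0.46 ± 0.06 below BY4741 (edgeR adjusted p = 5.31e-07). LCY002 was 0.64 ± 0.06 above LCY001, given without a test, and 0.18 ± 0.06 above BY4741 (edgeR adjusted p = 0.0186). The last call ended without BY4741 glucose replicate 2 (0.15, adjusted p = 0.0852) or LCY002 glucose replicate 1 (0.15, adjusted p = 0.0965), and with total counts as the scale (0.13, adjusted p = 0.0628).

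The change of RNR1 with the carbon source differed between strains. From glucose to ethanol/glycerol it rose by 0.65 ± 0.06 in BY4741 (edgeR adjusted p = 1.31e-10) and by 1.06 ± 0.06 in LCY001 (edgeR adjusted p = 8.23e-15), and it fell by 0.25 ± 0.06 in LCY002 (edgeR adjusted p = 0.000346). Total counts as the scale, which moved the median log2 difference of all genes by -0.14 to 0.19 over the comparisons, ended the LCY002 call (-0.08, adjusted p = 0.183). The difference between LCY002 and BY4741 in this change was -0.90 ± 0.08 (edgeR adjusted p = 4.42e-09). From galactose to ethanol/glycerol RNR1 rose by 0.48 ± 0.06 in BY4741 and 0.42 ± 0.06 in LCY001, against -0.00 ± 0.06 in LCY002 (edgeR adjusted p = 5.08e-08, 6.82e-07 and 0.958). The highest group means, 441 ± 16.8 CPM in BY4741 and 428 ± 22.3 CPM in LCY001, overlapped in range, as did the next 3 below them.

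Among large subunit transcripts RNR3 remained the minor form, with a larger share in LCY002. Per length, RNR3 made up 3.82% ± 0.452 of RNR1 plus RNR3 in BY4741, 3.92% ± 0.602 in LCY001 and 7.49% ± 0.995 in LCY002 in galactose. In ethanol/glycerol the shares were 1.9% ± 0.161, 2.11% ± 0.424 and 7.88% ± 0.0437. In glucose, where the gene was chosen, they were 3.37% ± 0.0591, 5.65% ± 0.832 and 10.3% ± 0.559. The LCY002 libraries lay above the others in each medium, and with 3 against 3 libraries an exact permutation test cannot go below a two-sided p of 0.1, so none is given.

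RNR2 encodes the small subunit protein that carries the iron radical cofactor, and it was higher in LCY002 in each medium by a modest factor. In galactose it read 433, 449 and 443 CPM in BY4741, 415, 419 and 411 in LCY001, and 539, 520 and 506 in LCY002. In ethanol/glycerol it read 330, 379 and 311 CPM in BY4741, 274, 277 and 266 in LCY001, and 393, 363 and 427 in LCY002. All LCY002 libraries exceeded those of LCY001, and in ethanol/glycerol they overlapped with those of BY4741.

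RNR2 rose in LCY002 against LCY001 by 0.33 ± 0.05 in galactose (edgeR adjusted p = 2.95e-05) and 0.53 ± 0.06 in ethanol/glycerol (edgeR adjusted p = 9.9e-09). Against BY4741 it rose by 0.24 ± 0.05 and 0.21 ± 0.06 (edgeR adjusted p = 0.00103 and 0.00166). LCY001 itself was lower than BY4741 in ethanol/glycerol by 0.32 ± 0.06 (edgeR adjusted p = 0.000218). In glucose, on 415, 406 and 393 CPM in BY4741, 389, 366 and 384 in LCY001, and 561, 553 and 580 in LCY002, it rose by 0.48 ± 0.05 against BY4741 (edgeR adjusted p = 7e-08) and stood 0.57 ± 0.06 above LCY001, without a test.

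RNR4 encodes the small subunit partner that folds and stabilises the Rnr2 protein, and it too was higher in LCY002 in each medium. It read 618, 638 and 622 CPM in BY4741, 617, 616 and 710 in LCY001, and 931, 869 and 855 in LCY002 in galactose. In ethanol/glycerol the libraries read 519, 549 and 522 CPM, 524, 515 and 507, and 684, 669 and 804 in the same order of strains. LCY002 did not overlap with either strain, and BY4741 and LCY001 overlapped in both media.

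RNR4 rose in LCY002 against LCY001 by 0.45 ± 0.06 in galactose (edgeR adjusted p = 2.94e-06) and by 0.48 ± 0.06 in ethanol/glycerol (edgeR adjusted p = 5.13e-07). Against BY4741 the rises were 0.50 ± 0.06 and 0.44 ± 0.06 (edgeR adjusted p = 4.87e-07 and 1.63e-06). The rise against LCY001 differed between these media by 0.03 ± 0.09 (edgeR adjusted p = 0.819). In glucose RNR4 read 675, 672 and 589 CPM in BY4741, 629, 608 and 571 in LCY001, and 1000, 962 and 1030 in LCY002, a rise of 0.63 ± 0.06 against BY4741 (edgeR adjusted p = 8.12e-09) and a difference of 0.73 ± 0.06 from LCY001 that was not tested. LCY001 was 0.10 ± 0.06 below BY4741 there (edgeR adjusted p = 0.198), which became a call without BY4741 glucose replicate 3 (-0.16, adjusted p = 0.0468).

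Small subunit transcripts were lowest in ethanol/glycerol within each strain. From galactose to ethanol/glycerol RNR2 fell by 0.38 ± 0.06 in BY4741, 0.61 ± 0.06 in LCY001 and 0.40 ± 0.05 in LCY002, and RNR4 fell by 0.24 ± 0.06, 0.33 ± 0.06 and 0.30 ± 0.06 (edgeR adjusted p between 2.57e-10 and 0.00149). From glucose to ethanol/glycerol RNR2 fell by 0.25 ± 0.06, 0.48 ± 0.06 and 0.52 ± 0.05 and RNR4 by 0.28 ± 0.06, 0.23 ± 0.06 and 0.47 ± 0.06. With total counts as the scale the BY4741 falls from glucose were no longer called (-0.06 for RNR2 and -0.09 for RNR4), nor was that of RNR4 in LCY001 (-0.11).

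Between galactose and glucose the small subunit genes differed less. RNR2 differed by 0.13 ± 0.05 in BY4741 and in LCY001 and by -0.11 ± 0.05 in LCY002, and RNR4 by -0.04 ± 0.06, 0.10 ± 0.06 and -0.17 ± 0.06. RNR1 differed by 0.16 ± 0.06 in BY4741 (edgeR adjusted p = 0.0178), rose by 0.65 ± 0.06 in LCY001 (edgeR adjusted p = 7.47e-10) and fell by 0.25 ± 0.06 in LCY002 (edgeR adjusted p = 0.000767). The calls for RNR2 in BY4741 and LCY001 (edgeR adjusted p = 0.0458 and 0.0456) ended without any one of 5 of their 6 libraries. That for RNR4 in LCY002 (edgeR adjusted p = 0.0212) ended without LCY002 glucose replicate 3, galactose replicate 2 or galactose replicate 3 (-0.15, -0.16 and -0.15), and that for RNR1 in BY4741 ended without glucose replicate 2 or galactose replicate 3 (0.14 and 0.11).

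Small and large subunit transcripts shifted against each other in LCY002. Per length, RNR2 plus RNR4 over RNR1 plus RNR3 was 5.06 ± 0.401 in BY4741, 4.75 ± 0.283 in LCY001 and 10.1 ± 1.07 in LCY002 in ethanol/glycerol. In galactose the ratio was 8.51 ± 0.547, 8.34 ± 0.579 and 12.8 ± 0.602, and in glucose 9.44 ± 0.764, 11.9 ± 1.34 and 11.5 ± 0.446. LCY002 lay apart from the other strains in ethanol/glycerol and galactose, and in glucose it overlapped with LCY001. RNR4 over RNR2 varied less, between group means of 1.67 and 2.23.

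**Figure D2:**
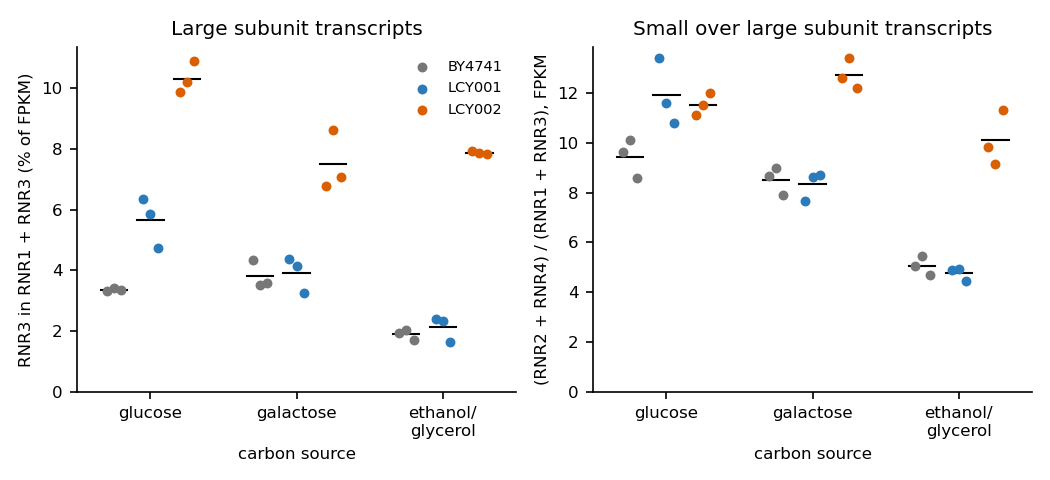
Share of RNR3 in the large subunit transcripts (left, % of summed FPKM) and ratio of small to large subunit transcripts (right, FPKM over FPKM) in each library, by carbon source (x axis) and strain (colour), with bars at group means. In ethanol/glycerol the LCY002 libraries lie at 7.85% to 7.93% on the left, above the 1.63% to 2.38% of the other strains.

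Against the background of all genes, these calls came from comparisons in which many genes moved. In LCY002 against LCY001 all 4 members were called in galactose, RNR1 lower and the others higher, where 38.2% of genes were called, 20.2% higher and 18.1% lower. In ethanol/glycerol all 4 were called in the same directions, where 59.8% were called, 29.4% higher and 30.4% lower. With total counts as the scale the called genes split into 586 higher and 2723 lower in galactose, and limma on log2(FPKM + 1) gave 592 and 2648 there and 1314 and 2135 in ethanol/glycerol. In LCY002 against BY4741 all 4 were called in galactose and in ethanol/glycerol (37.8% and 59.7% of genes called), and all 3 tested members in glucose (38.4%). In LCY001 against BY4741, 1 of 3 tested members was called in glucose (55.4%), 0 of 4 in galactose (38.9%) and 1 of 4 in ethanol/glycerol (11.5%). In glucose 53.7% of genes were called between LCY002 and LCY001, and the members are not counted there. The median size of the log2 difference over all genes was 0.12 in galactose and 0.19 in ethanol/glycerol between LCY002 and LCY001. Each of the 4 members exceeded it in both media.

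The comparisons of carbon sources called most of the genes. In galactose against glucose 3 of 4 members were called in BY4741 (65.5% of genes), 2 of 3 tested in LCY001 (59.3%) and 2 of 3 tested in LCY002 (60.1%). In ethanol/glycerol against glucose 3 of 4 were called in BY4741 (81.4%), and all 3 tested in LCY001 (78.1%) and in LCY002 (83.5%). In ethanol/glycerol against galactose all 4 were called in BY4741 (73.1%) and in LCY001 (71.6%), and 2 of 4 in LCY002 (77%). 

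A strain effect can itself differ between media, and this was tested as an interaction. For LCY002 against LCY001, 3 of 4 members differed between ethanol/glycerol and galactose (43.6% of genes called). For LCY002 against BY4741, 2 of 3 tested members differed between galactose and glucose (11.2%), 2 of 3 between ethanol/glycerol and glucose (39.5%) and 2 of 4 between ethanol/glycerol and galactose (44.7%). For LCY001 against BY4741, 1 of 3 tested members differed between galactose and glucose (50.9%), 2 of 3 between ethanol/glycerol and glucose (46%) and 1 of 4 between ethanol/glycerol and galactose (18.3%). RNR1 was among the called members in each of these except the last. The RNR2 calls among them, except that of LCY002 against BY4741 between ethanol/glycerol and glucose, ended without at least 1 single library. RNR4 became a call in that interaction without LCY002 ethanol/glycerol replicate 3 (-0.28).

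**Figure D3:**
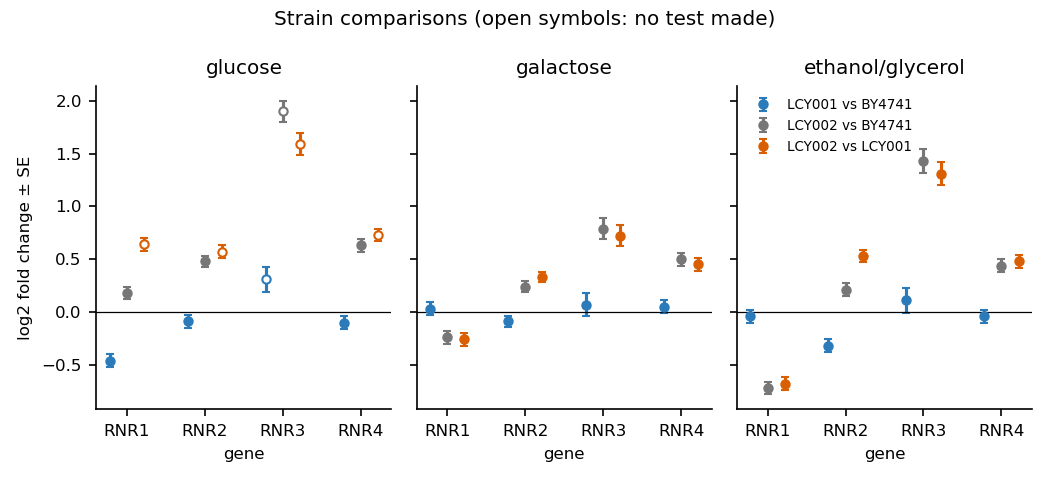
Fitted log2 fold change ± SE (y axis) of each gene (x axis) in the 3 strain comparisons (colour), 1 panel for each carbon source; open symbols were not tested because those libraries chose the genes. In galactose and ethanol/glycerol the LCY002 comparisons are below 0 for RNR1 and above 0 for RNR2, RNR3 and RNR4.

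HUG1, a checkpoint-induced inhibitor of the enzyme known to be repressed by Rfx1, was nearly silent without the array. In galactose its counts were 0, 3 and 3 in BY4741, 3, 1 and 1 in LCY001, and 25, 24 and 32 in LCY002. In ethanol/glycerol they were 3, 2 and 2 in BY4741, 2, 3 and 6 in LCY001, and 11, 5 and 10 in LCY002. LCY002 stood above both strains in galactose, while in ethanol/glycerol 1 of its libraries overlapped with LCY001.

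Per library total, summed HUG1 counts in LCY002 were 15.8 times those in LCY001 in galactose (exact 95% interval 6.49 to 49.9, counting error only) and 2.38 times in ethanol/glycerol (1.13 to 5.33). HUG1 was called higher in both (edgeR adjusted p = 3.86e-07 and 0.0474), the second call ending without LCY001 ethanol/glycerol replicate 1 or 2 or LCY002 replicate 1 or 3, and with DESeq2 and total counts as the scale. In glucose, as a description, the counts were 5, 3 and 5 in BY4741, 1, 7 and 4 in LCY001, and 71, 45 and 58 in LCY002.

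RFX1 (CRT1), the repressor of the RNR genes, is itself known to be induced by damage. It rose in LCY002 against LCY001 in ethanol/glycerol by 0.73 ± 0.07 (edgeR adjusted p = 8.34e-10), from 40.7, 46.6 and 47.0 to 77.0, 73.6 and 72.6 CPM, and against BY4741 by 0.65 ± 0.07 (edgeR adjusted p = 4.06e-09). In galactose it rose by 0.22 ± 0.07 against LCY001 (edgeR adjusted p = 0.0105), a call that ended without LCY001 replicate 3, without LCY002 replicate 2, with total counts as the scale and with limma. Against BY4741 in galactose its difference was -0.04 ± 0.07 (edgeR adjusted p = 0.663). In glucose it stood 0.39 ± 0.07 lower in LCY002 than in LCY001, which is outside the test. Against BY4741 in glucose, RFX1 stood 0.45 ± 0.07 higher in LCY001, and LCY002 differed by 0.07 ± 0.07.

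**Figure D4:**
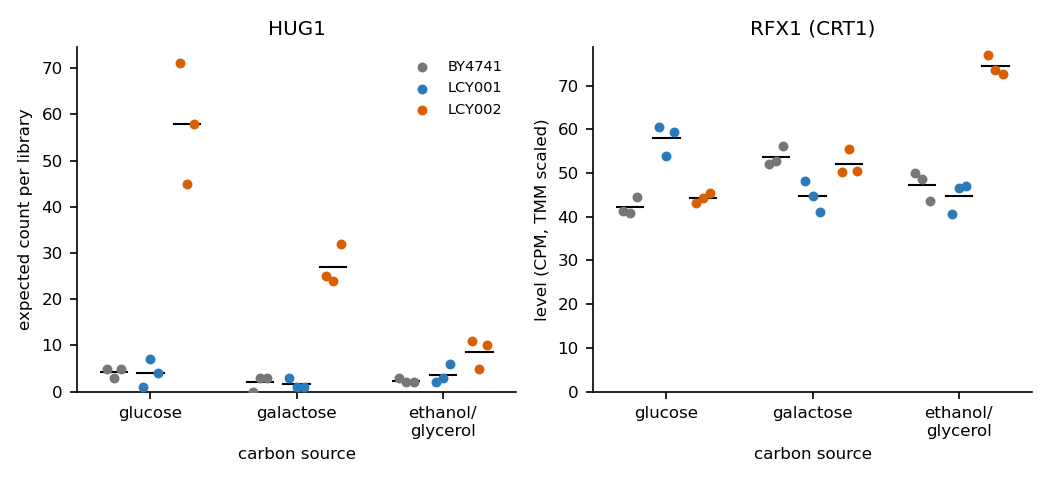
Expected count of HUG1 (left) and CPM of RFX1 (right) in each library, by carbon source (x axis) and strain (colour), with bars at group means and axes from 0. HUG1 reaches 45 to 71 counts in LCY002 in glucose and at most 7 in the other strains, while RFX1 is highest in LCY002 in ethanol/glycerol, at 72.6 to 77.0 CPM.

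Other regulators differed between LCY002 and LCY001 in both directions. RAD53, the checkpoint kinase gene, was 0.39 ± 0.10 lower in LCY002 than in LCY001 in galactose (edgeR adjusted p = 0.00374). NRM1, a co-repressor of G1/S genes, was 0.32 ± 0.08 lower. In galactose both were higher in LCY001 than in BY4741, by 0.36 ± 0.10 and 0.35 ± 0.08 (edgeR adjusted p = 0.00622 and 0.00072). RAD53 in LCY002 differed from BY4741 there by -0.03 ± 0.10 (edgeR adjusted p = 0.866). In glucose, as a description, RAD53 and NRM1 stood 0.54 ± 0.10 and 0.59 ± 0.08 higher in LCY002 than in LCY001. LCY001 differed from BY4741 in glucose by -0.23 ± 0.10 for RAD53 and -0.40 ± 0.08 for NRM1. RAD53 stood 0.31 ± 0.10 higher in LCY002 than in BY4741 there. DUN1, the kinase gene downstream of RAD53, differed between LCY002 and LCY001 by -0.20 ± 0.06 in galactose and -0.15 ± 0.06 in ethanol/glycerol. Each call ended without some single libraries. SML1 and DIF1 encode inhibitors that hold the enzyme back by binding Rnr1 or keeping the small subunit in the nucleus. SML1 differed by -0.13 ± 0.05 in ethanol/glycerol (edgeR adjusted p = 0.034), a call that ended without any one of 5 of the 6 libraries, and by -0.01 ± 0.05 in galactose. DIF1 differed by -0.16 ± 0.08 in galactose and 0.19 ± 0.10 in ethanol/glycerol, neither called. DIF1 fell by 1.38 ± 0.09 from glucose to ethanol/glycerol in BY4741 (edgeR adjusted p = 6.7e-14). WTM1 and WTM2 encode the nuclear anchors of the small subunit, and WTM1 differed by 0.19 ± 0.05 in galactose and WTM2 by 0.08 ± 0.06. IXR1, a DNA-binding protein gene known to act on RNR1, rose by 0.36 ± 0.05 in ethanol/glycerol (edgeR adjusted p = 1.15e-06), and MRC1, a replication checkpoint mediator gene, fell by 0.39 ± 0.06. Of the 19 genes of checkpoint kinases and RNR regulators, 4 were called higher and 6 lower in galactose, and 3 and 7 in ethanol/glycerol, with list medians of 0.03 and 0.01 against 0.00 and -0.00 for all genes. These stand beside 20.2% of all genes higher and 18.1% lower in galactose, and 29.4% and 30.4% in ethanol/glycerol. Total counts as the scale gave 1 higher and 9 lower in galactose.

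Genes known to be induced by DNA damage, without the RNR genes, were called higher in 4 of 16 cases and lower in 2 in galactose, and in 9 and 1 in ethanol/glycerol. Of all genes, 20.2% were called higher and 18.1% lower in galactose, and 29.4% and 30.4% in ethanol/glycerol. The list medians were 0.10 and 0.25. Beside HUG1 and RFX1, which are also on the regulator list, PLM2, which encodes a transcription factor with a forkhead-associated domain, rose by 0.36 ± 0.08 and PHR1, the photolyase gene, by 0.35 ± 0.09 in galactose (edgeR adjusted p = 0.000585 and 0.00284). RAD16, a nucleotide excision repair gene, rose by 0.47 ± 0.06 in ethanol/glycerol (edgeR adjusted p = 9.99e-07). In galactose 3 to 5 genes were called higher over the alternatives, and in ethanol/glycerol 8 to 9. PHR1 in galactose was also 0.46 ± 0.09 lower in LCY001 than in BY4741 (edgeR adjusted p = 0.000191). In glucose, as a description, 5 of the 16 genes were higher and 5 lower in LCY002 against LCY001, where 53.7% of all genes were called. The list median there was 0.04, and PHR1 stood 1.09 ± 0.09 lower in LCY002. In LCY001 against BY4741 in glucose, both without the array, PHR1 stood 0.89 ± 0.09 higher. Of the 16 genes, 9 were called higher and 1 lower in that comparison, where 55.4% of all genes were called. The list median was 0.17. In BY4741, ethanol/glycerol against glucose gave 10 higher and 3 lower, where 81.4% of all genes were called.

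DNA replication genes of the G1/S transition, the group with which RNR1 is known to be transcribed, were called lower in 11 of 20 cases in galactose and in 15 of 20 in ethanol/glycerol, with 0 higher in both. Over all genes 18.1% and 30.4% were called lower. The list medians were -0.16 and -0.27. CLB6 and CLB5, the S-phase cyclin genes, fell by 0.58 ± 0.14 and 0.42 ± 0.08 in galactose (edgeR adjusted p = 0.0013 and 0.000128), and POL30, the gene of the sliding clamp PCNA, by 0.35 ± 0.05 (edgeR adjusted p = 8.58e-06). In ethanol/glycerol POL1, the DNA polymerase alpha gene, fell by 0.66 ± 0.04, CLB5 by 0.64 ± 0.07 and POL30 by 0.52 ± 0.05 (edgeR adjusted p = 1.52e-12, 5.5e-08 and 1.15e-08). The counts of lower genes were 9 to 17 and 14 to 17 over the alternatives. CLB5 in galactose was also 0.44 ± 0.08 higher in LCY001 than in BY4741 (edgeR adjusted p = 8.28e-05). For LCY002 against BY4741 the list medians were -0.15 in galactose and -0.26 in ethanol/glycerol. In glucose, as a description, the median of this list between LCY002 and LCY001 was 0.07, with CLB6 0.70 ± 0.15 and CLB5 0.29 ± 0.08 higher in LCY002. LCY001 was itself low there. Against BY4741 in glucose it had 9 of the 20 genes called lower and 0 higher, where 55.4% of all genes were called. CLB6 differed by -0.64 ± 0.15 in that comparison. For LCY002 against BY4741 in glucose the list median was -0.03. The part of the cell cycle in the RNR1 values was not tested.

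Other genes of deoxynucleotide synthesis were called higher in 3 of 13 cases and lower in 1 in galactose, and in 1 and 5 in ethanol/glycerol, with medians of -0.03 and -0.08. The shares over all genes were 20.2% higher and 18.1% lower in galactose, and 29.4% and 30.4% in ethanol/glycerol. CDC21, the thymidylate synthase gene, fell by 0.47 ± 0.04 in galactose and 0.34 ± 0.04 in ethanol/glycerol (edgeR adjusted p = 1.02e-09 and 2.05e-07). DCD1, the dCMP deaminase gene, fell by 0.53 ± 0.07 in ethanol/glycerol (edgeR adjusted p = 3.59e-07). The higher genes in galactose included TRX2 (0.32 ± 0.09) and GRX2 (0.31 ± 0.07). They encode a thioredoxin and a glutaredoxin, the kinds of protein that reduce the enzyme after each turnover. The TRX2 call ended with total counts as the scale and with limma. GRX2 in galactose was also 0.42 ± 0.07 lower in LCY001 than in BY4741 (edgeR adjusted p = 2.53e-05). In glucose, as a description, GRX2 stood 0.61 ± 0.07 lower in LCY002 than in LCY001, and 0.53 ± 0.07 higher in LCY001 than in BY4741. With total counts as the scale 1 gene of the list was called higher and 7 lower in LCY002 against LCY001 in galactose.

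Core histone genes, which are transcribed in S phase, were called lower in 2 of 8 cases in galactose and 4 of 8 in ethanol/glycerol, with 0 higher and medians of 0.06 and -0.18, beside 18.1% and 30.4% of all genes called lower. HTB2 fell by 0.49 ± 0.05 and HTA2 by 0.34 ± 0.07 in ethanol/glycerol (edgeR adjusted p = 3.36e-09 and 0.000274). The galactose count was 0 without LCY001 galactose replicate 2. In LCY001 against BY4741, 6 of 8 were called lower in galactose and 7 of 8 in ethanol/glycerol. Of all genes 38.9% and 11.5% were called there. The list medians were -0.20 and -0.25 for LCY001 against BY4741, and -0.24 and -0.44 for LCY002 against BY4741. Histone transcripts have near-identical copies, and the RNA was selected by poly(A) tail.

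Genes of iron-sulfur and iron cofactor assembly were called higher in 5 of 11 cases and lower in 1 in galactose, and in 5 and 4 in ethanol/glycerol. The list medians were 0.10 and 0.12, beside all-gene shares of 20.2% higher and 18.1% lower in galactose (29.4% and 30.4% in ethanol/glycerol). CFD1, a scaffold gene of cytosolic iron-sulfur assembly, rose by 0.44 ± 0.06 in galactose (edgeR adjusted p = 3.67e-06). In ethanol/glycerol YFH1, the frataxin gene, rose by 0.37 ± 0.06 and TAH18, which encodes the electron donor of the Dre2 complex, fell by 0.34 ± 0.06 (edgeR adjusted p = 1.72e-05 and 4.81e-05). With total counts as the scale the genes called higher numbered 1 in galactose and 2 in ethanol/glycerol.

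**Figure D5:**
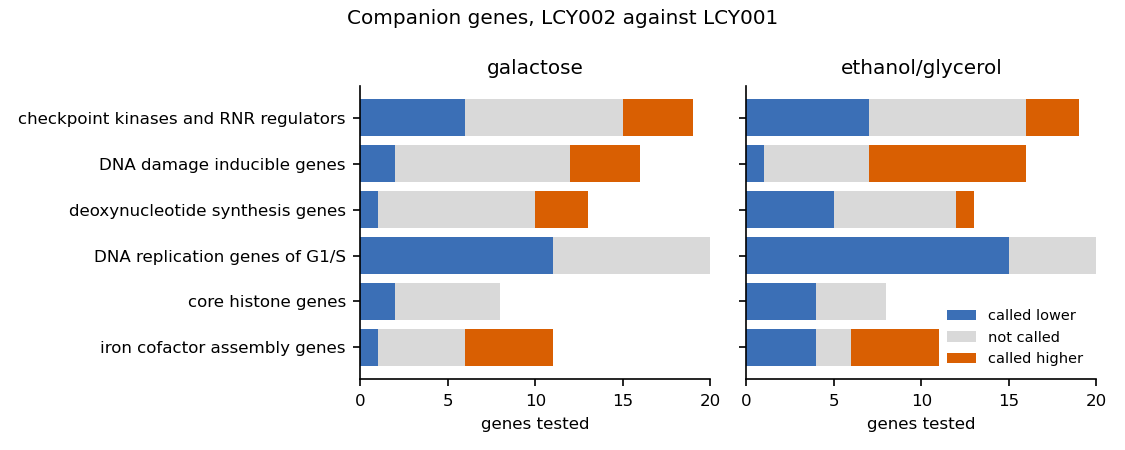
Number of genes called higher, called lower or not called (x axis) in LCY002 against LCY001 for each of the 6 companion lists (y axis), in galactose (left) and ethanol/glycerol (right). The DNA replication list has 11 and 15 genes called lower and 0 called higher, and the damage list has 4 and 9 called higher.

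The genes beyond the members with the shared upstream word gave mixed values. NDE2, an external NADH dehydrogenase gene, rose in LCY002 against LCY001 by 0.63 ± 0.12 in galactose and 1.09 ± 0.08 in ethanol/glycerol (edgeR adjusted p = 0.000281 and 1.39e-10). PAC1, a dynein pathway gene, fell by 0.63 ± 0.07 in ethanol/glycerol (edgeR adjusted p = 2.34e-08). In galactose PAC1 differed by -0.16 ± 0.06 from LCY001 (edgeR adjusted p = 0.0453), a call that ended without any one of the 6 libraries, and was 0.25 ± 0.07 higher than in BY4741 (edgeR adjusted p = 0.00338). YDL085C-A and YOR268C, on the other side of the same words, were not called in either medium (log2 differences of 0.11 ± 0.17 and 0.27 ± 0.22, and of 0.10 ± 0.58 and -0.26 ± 0.64).

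The pattern over the 9 group means of log2 CPM was compared with that of 5434 genes of at least 5 CPM, as a description over groups that share strain and medium. The groups include LCY002 and LCY001 in glucose, which chose RNR3, so no r value with RNR3 is independent of that choice. For RNR3 the most similar genes were ERG4 (Pearson r = 0.971), ERG9 (0.934), ERG6 (0.929), COQ6 (0.924), ERG27 (0.923) and ERG20 (0.920). All but COQ6 are genes of the array, which LCY002 carries in extra copies, and COQ6, a coenzyme Q synthesis gene, lies beside the array gene ENO1 on chromosome VII. For RNR4 they were ERG20 (0.985), ERG6 (0.980) and ERG2 (0.965), and for RNR2 ERG20 (0.928), YMR1 (0.918) and HXK2 (0.917). For RNR1 they were HIR3 (0.948), a histone gene co-repressor, YOX1 (0.936), a cell cycle repressor, and PEX6 (0.936), a peroxisome biogenesis gene. YOX1 read 146 ± 5.49 CPM in BY4741, 139 ± 10.1 in LCY001 and 68 ± 0.835 in LCY002 in ethanol/glycerol. Among the members, r was 0.93 for RNR3 with RNR4, 0.91 for RNR2 with RNR4 and 0.78 for RNR2 with RNR3, and -0.44 to -0.35 for RNR1 with each of the others.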

How the data were processed

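Messenger RNA of 27 yeast libraries was analysed, 3 from individual colonies for each of 9 groups named by strain and carbon source in the labels. The authors deposited 1 table per library with RSEM expected counts, FPKM and TPM per gene, per the file headers; TPM was not used. RSEM 1.2.8, Bowtie2 2.2.5 and HISAT2 2.1.0 are listed, with R64 as the build, per the submitters' processing notes. Per the labels' protocols mRNA was purified with oligo(dT) beads. The sources used here do not say whether reads were counted by strand. RSEM shares ambiguous reads between similar genes, which could move counts between paralogs. A table of FPKM for the whole series was not used.

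Of 5995 genes, 5980 IDs matched a symbol in the reference annotation of build R64 and 15 did not. Expected counts were rounded and tested with edgeR 4.0.16 under R 4.3.3, using TMM scaling, filterByExpr, a robust quasi-likelihood fit of all 27 libraries with 1 mean per group, and Benjamini-Hochberg adjustment over 5692 genes within each comparison. The comparisons were 9 of strains, 9 of carbon sources and 9 interactions, which share libraries. The fit had a common dispersion of 0.00278 (biological coefficient of variation 0.0527), and TMM factors ran from 0.905 to 1.08. The same edgeR steps were run on counts simulated from the galactose libraries of LCY001 and LCY002 alone. That is a smaller design than the fit of all 27 libraries, and no result here rests on it. Library totals are given with the results, and a count of 3 was taken as the counting floor. No replicate pair of the 27 agreed within sampling noise (chi-square per degree of freedom 3.38 to 20.26). Levels between genes were compared as deposited FPKM only. Log2 fold changes of the limma alternative used log2(FPKM + 1) for genes with a mean of at least 1 FPKM.

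The members and the 6 companion lists were chosen with earlier results of these data known, so their counts are descriptions. RNR3 was given no test wherever glucose libraries of LCY001 or LCY002 entered, and no member was tested in LCY002 against LCY001 in glucose. Genes named are the 4 members, 9 regulators (IXR1 among them) and at most 3 called genes with the largest difference per list and comparison. The 6 genes most like RNR3, 3 for each other member and the genes with the shared upstream word were also named. Motifs were searched in 800 bases before the start codon of 6002 genes. Alternatives were DESeq2 1.42.0, no filter, TMM without the 40 array genes, total counts as the scale, RLE size factors, only the libraries compared, a replicate block, limma 3.58.1 and leaving out each library in turn.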

Additional observations from a re-analysis of the deposited data

Results flagged for a closer look

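The strain effect on a member differed between media by the interaction test of edgeR in 13 cases, and the values below are differences of log2 fold changes. The groups have 3 libraries, too few for a search for outlying samples.

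RNR1 accounted for 6 of them. The change of LCY002 against BY4741 differed by -0.90 ± 0.08 between ethanol/glycerol and glucose (edgeR adjusted p = 4.42e-09), by -0.49 ± 0.08 between ethanol/glycerol and galactose (edgeR adjusted p = 3.77e-05) and by -0.42 ± 0.08 between galactose and glucose (edgeR adjusted p = 0.0013). Against LCY001 the change differed by -0.42 ± 0.08 between ethanol/glycerol and galactose (edgeR adjusted p = 0.000244). LCY001 against BY4741 differed by 0.48 ± 0.08 between galactose and glucose and by 0.42 ± 0.08 between ethanol/glycerol and glucose (edgeR adjusted p = 3.23e-05 and 0.000241), both of which contain the low RNR1 libraries of LCY001 in glucose.

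RNR3 rose more in ethanol/glycerol than in galactose, by 0.59 ± 0.15 against LCY001 and by 0.64 ± 0.15 against BY4741 (edgeR adjusted p = 0.00245 and 0.00128). These 2 differences share the LCY002 libraries.

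RNR2 gave 5 smaller differences. LCY001 against BY4741 differed by -0.23 ± 0.08 between ethanol/glycerol and glucose, a call that ended without BY4741 ethanol/glycerol replicate 2 (-0.14), and by -0.23 ± 0.08 between ethanol/glycerol and galactose. LCY002 against LCY001 differed by 0.21 ± 0.08 between ethanol/glycerol and galactose. LCY002 against BY4741 differed by -0.24 ± 0.08 between galactose and glucose and by -0.27 ± 0.08 between ethanol/glycerol and glucose. Only the last of these 5 (edgeR adjusted p = 0.00772) kept its call under each alternative run. The call between ethanol/glycerol and galactose ended without any one of 10 of the 12 libraries for LCY001 against BY4741 (-0.24 to -0.15) and of 8 of the 12 for LCY002 against LCY001 (0.14 to 0.21), and that of LCY002 against BY4741 between galactose and glucose without any one of 11 (-0.26 to -0.22).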

How the results depend on the processing

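Of 96 member results, 1488 values under alternatives kept direction and call in 1366 cases, turned weaker in 71, stronger in 7, moved in 9 and reversed in 35. In LCY002 against LCY001 and BY4741, in galactose and in ethanol/glycerol, all 4 members kept direction and call under every alternative run. The cause of the changes below was not tested. Total counts as the scale and limma on log2(FPKM + 1) gave, for log2 differences of ethanol/glycerol against glucose, RNR2 -0.06 and -0.06 and RNR4 -0.09 and -0.09 in BY4741, RNR4 -0.11 and -0.11 in LCY001 and RNR1 -0.08 and -0.08 in LCY002, none called. They also gave RNR1 0.13 and 0.13 in LCY002 against BY4741 in glucose and RNR4 -0.10 and -0.09 in LCY002 in galactose against glucose, not called, and RNR4 0.21 and 0.21 in LCY001, called. RNR4 in BY4741 turned to 0.08 and 0.08. Untested differences moved to 0.47 and 0.46 (RNR2) and 0.62 and 0.62 (RNR4) for LCY002 against LCY001 in glucose, and to -0.51 and -0.47 for RNR3 in LCY002 in ethanol/glycerol against glucose. With limma RNR3 in glucose was 1.31 against LCY001, 1.61 against BY4741, and -0.63 for galactose against glucose in LCY002. RLE and DESeq2 ended the galactose against glucose calls of RNR1 (0.13 and 0.13) and RNR2 (0.09 and 0.09) in BY4741 and of RNR2 (0.11 and 0.11) in LCY001, and called RNR2 in LCY002 (-0.15 and -0.15), as did a fit of only the libraries compared (-0.14). RNR1 in LCY002 in ethanol/glycerol against galactose turned to 0.01 (RLE and DESeq2), 0.09 (total counts and limma) and 0.03 (only the libraries compared). Interactions near 0 turned with total counts and limma: RNR3 -0.02 and RNR2 -0.01 and RNR4 -0.02 for LCY001 against BY4741.

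Replicate numbers did not pair the libraries. Of 108 same-numbered pairs 7 had a correlation of deviations over 0.1 (range -0.31 to 0.25), and 3 of 27 libraries correlated best with their own number. The replicate block ended the calls of RNR2 in galactose against glucose in BY4741 (0.13, adjusted p = 0.0556) and LCY001 (0.13, adjusted p = 0.056), and of the RNR2 interactions of LCY001 against BY4741 between ethanol/glycerol and galactose (-0.23, adjusted p = 0.0501; -0.23, adjusted p = 0.0939 with only the libraries compared) and of LCY002 against BY4741 between galactose and glucose (-0.24, adjusted p = 0.0565). The block changed no other call of a member.

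Leaving out each library in turn gave ranges of the log2 difference in which a call or a sign changed. For LCY001 against BY4741 they were -0.01 to 0.08 for RNR1, -0.07 to 0.18 for RNR3 and -0.02 to 0.08 for RNR4 in galactose, and -0.16 to -0.06 for RNR4 in glucose. For LCY002 against BY4741 in glucose RNR1 ranged from 0.15 to 0.20. For galactose against glucose the ranges were 0.11 to 0.19 for RNR1, 0.11 to 0.15 for RNR2 and 0.28 to 0.42 for RNR3 in BY4741, 0.10 to 0.15 for RNR2 and -0.03 to 0.21 for RNR3 (untested) in LCY001, and -0.21 to -0.15 for RNR4 in LCY002. RNR1 ranged from -0.06 to 0.04 for ethanol/glycerol against galactose in LCY002. Among interactions of LCY001 against BY4741, RNR2 ranged from -0.29 to -0.15 and RNR3 from -0.07 to 0.18 between ethanol/glycerol and galactose, RNR2 from -0.29 to -0.14 between ethanol/glycerol and glucose, and RNR2 from -0.02 to 0.02 between galactose and glucose. Among those of LCY002 against BY4741, RNR2 ranged from -0.09 to 0.06 between ethanol/glycerol and galactose and from -0.27 to -0.22 between galactose and glucose, and RNR4 from -0.28 to -0.13 between ethanol/glycerol and glucose. For LCY002 against LCY001 between ethanol/glycerol and galactose RNR2 ranged from 0.14 to 0.26 and RNR4 from -0.06 to 0.08.

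The number of all genes called moved most for LCY001 against BY4741 in ethanol/glycerol. It was 655, with 257 in a fit of only the libraries compared, 404, 394 and 1030 without BY4741 replicate 1, 2 or 3, and 403 and 426 without LCY001 replicate 1 or 3. The interaction of that comparison between ethanol/glycerol and galactose went from 1042 to 650 in the smaller fit, and LCY002 against LCY001 in galactose from 2175 to 3309 with total counts as the scale.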
